A study of Mus musculus with 10 samples.

Results

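Collagen chains, elastic fibre proteins, lysyl oxidases and the enzymes and chaperone that prepare collagen were followed in whole lungs of mice that drank arsenic and of control mice. The genes were taken from the array's annotation, as those whose probe sets carry a single symbol of the collagen form (Col, a number, a, a number) or the symbol Lox, Loxl1, Loxl3, Loxl4, Eln, Fbln1, Fbln5, Fn1, Plod1, Plod2 or Serpinh1, and each gene was read from the probe set whose mean across the 10 arrays was highest. This gave 53 of the 18194 genes with a single symbol, of which 33 were bright enough to be tested among 11333 genes. The lysyl oxidase gene Loxl2, whose probe sets carry more than 1 symbol, and Fbn1, for which no probe set was listed, were not analysed here.

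5 female C57BL/6 mice, an inbred laboratory strain, drank water with 50 ppm of arsenic for 12 weeks, from the age of 8 weeks, and 5 control mice of the same strain, sex and age had deionized water without arsenic (0 ppm). No genetic change is named for either group. RNA of each lung was read on 1 Affymetrix array, and the values are log2 intensities, so a difference of 1 is a doubling. The series text calls the compound arsenate and the sample protocols call it arsenite, so it is called arsenic here; the protocol field of 1 control animal gives no dose. The sample titles carry the number 20 for every arsenic mouse and 4 for every control, with no stated meaning, and a cage or batch marked that way cannot be told apart from the exposure.

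Fibrillar collagens form the tensile cables of the lung interstitium, airways and vessels, and collagen III runs beside collagen I in the alveolar septa. Collagen IV is the sheet of the basement membrane on which epithelium and endothelium rest, and in the thin alveolar wall the membranes of both are fused. Collagen VI makes beaded filaments around cells. Elastin and its partner proteins give the alveoli their recoil. Lysyl oxidases are copper enzymes that crosslink both collagen and elastin outside the cell, while lysyl hydroxylases and the chaperone HSP47, encoded by Serpinh1, act on collagen chains in the endoplasmic reticulum.

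The arrays had close distributions, with medians from 4.11 to 4.26 and pairwise correlations from 0.990 to 0.997, and the labelled tissue was borne out by its own markers: the mean log2 value of 5 lung epithelial genes (Sftpc, Sftpb, Scgb1a1, Ager, Foxj1) was 14.25 ± 0.12 in arsenic mice and 14.27 ± 0.09 in controls (SD, n = 5 each). Each animal has its own individual number in the labels, so the spread is between animals. The number of arrays limits the precision. Because whole lung was measured, fewer cells of a type and less RNA per cell cannot be told apart in any value given here.

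None of the 33 genes passed the test across all genes, limma with Benjamini-Hochberg adjustment at 0.05, which 54 of 11333 genes passed (0.476%); the smallest adjusted p among them was 0.0841, of Col3a1. Before adjustment, 7 of the 33 (21.2%) had a p under 0.05, against 15.7% of all genes. Of these, 6 had lower means in arsenic mice (18.2%, against 5.13% of all genes): Col3a1, Col1a2, Col27a1, Col4a4, Col6a2 and Loxl1. The other, Plod1, had a higher mean (3.03%, against 10.6%). In 1 gene, Col3a1, the groups did not overlap (3.03%, against 3.63% of all genes in either direction and 0.803% with lower values in arsenic mice). The difference of means, arsenic minus control, was negative in 23 of the 33 genes (69.7%), against 36.8% of all genes, but in 16 of 33, against 26.1%, when each array was centred on its median. With the mean of kidney markers as a covariate 17 of 33 were negative, against 36.0% of all genes. Without control mouse 3 or control mouse 5 the count was 19 of 33, against 39.3% and 34.9% of all genes. The median difference was -0.054 for the 33 genes and 0.057 for all genes, and 24 of the 33 lay below the median of all genes. Median centring moves the difference of every gene by the same amount. It therefore could not test that count, apart from genes at the edge of the filter. The 23 collagen chains had 18 negative differences and a median of -0.079, and the 10 other genes 5 negative differences and a median of 0.024. With median centring the collagen chains had 12 of 23 negative differences and a median of -0.016, and the other genes 4 of 10 and 0.087; with the mean of the kept probe sets the median of the other genes was -0.083.

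**Figure D1:**
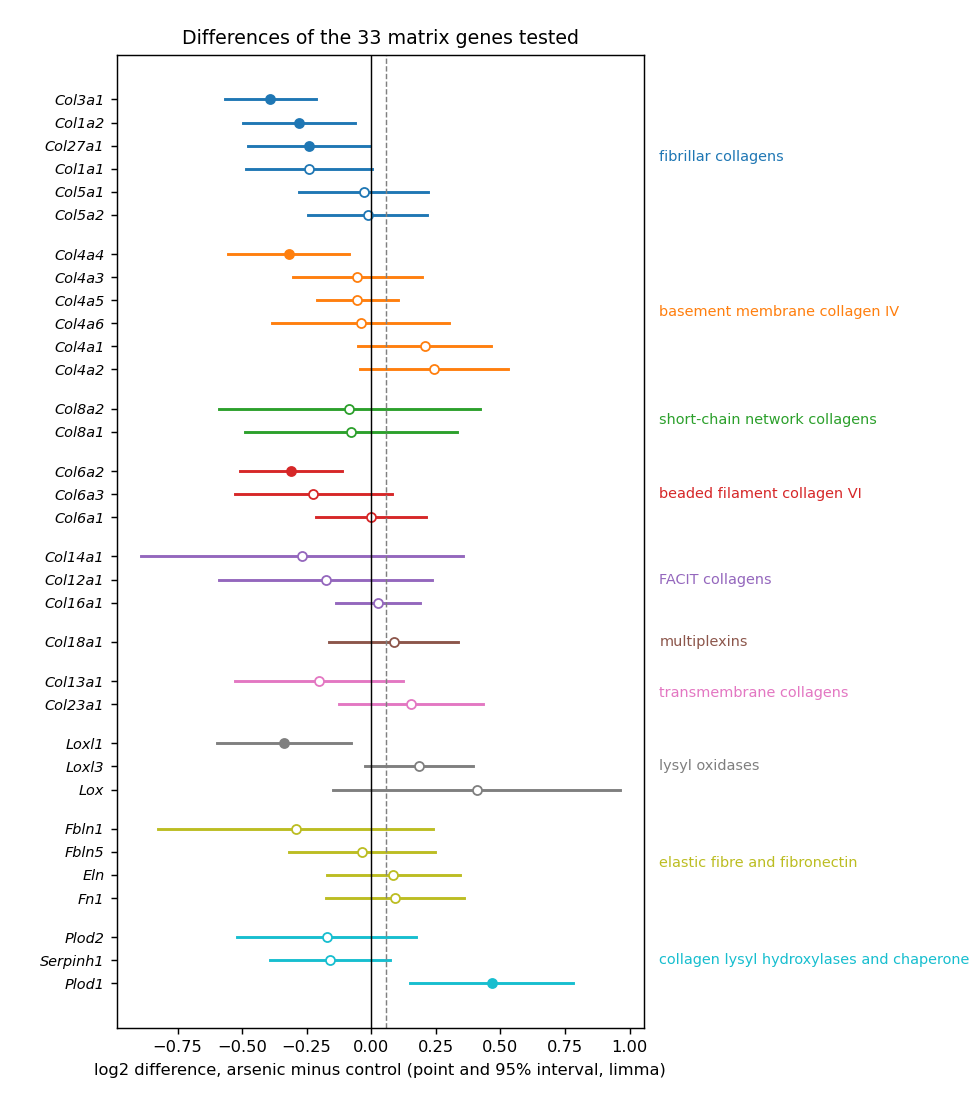
Difference of mean log2 intensity, arsenic minus control, for each of the 33 genes tested, with its 95% interval from limma, grouped by class; filled points have an unadjusted p under 0.05, the solid line marks 0 and the dashed grey line the median of all genes, 0.057. All 6 fibrillar collagens lie left of 0 (4 of 6 when arrays are centred on their medians), while Plod1 is the filled point on the right, at 0.47.

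The 6 fibrillar collagen chains tested had differences from -0.39 to -0.01, all negative, with a median of -0.24; with each array centred on its median those of Col5a1 and Col5a2 were positive, at 0.03 and 0.05. Col3a1, which encodes the only chain of collagen III, had values of 12.70, 12.59, 12.84, 12.73 and 12.84 in arsenic mice 1 to 5, against 13.16, 12.95, 13.11, 13.19 and 13.24 in control mice 1 to 5. Every arsenic mouse lay below every control. The means were 12.74 ± 0.10 in arsenic mice and 13.13 ± 0.11 in controls (SD, n = 5 each), a difference of -0.39 (SE 0.08, limma adjusted p = 0.0841), which is an arsenic to control ratio of 0.763 with a 95% interval from 0.674 to 0.862. A second probe set of Col3a1 had 8.18 ± 0.25 in arsenic mice and 8.74 ± 0.07 in controls, again without overlap, a difference of -0.55 (SE 0.12, limma adjusted p = 0.0826 over all probe sets, of which 0.439% passed). The adjusted p of Col3a1 was 0.0333 with a trended, robust prior and 0.0468 with array weights, but 0.120 with median centring, and over all 13 alternatives it ran from 0.0333 to 0.259. Without single animals it ran from 0.0707 to 0.228, the highest without control mouse 1, while the difference stayed between -0.44 and -0.35.

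Col1a1 and Col1a2 encode the chains of collagen I, the main fibre-forming collagen. Col1a2 was at 11.37, 11.44, 11.63, 11.55 and 11.36 in arsenic mice, against 11.60, 11.65, 11.87, 11.64 and 12.00 in controls. 4 of 5 arsenic mice lay below every control, arsenic mouse 3 being the exception, and the difference was -0.28 (SE 0.10, limma adjusted p = 0.236). With another probe set Col1a2 gave -0.24 with no overlap between the groups (SE 0.08, limma adjusted p = 0.181 over all probe sets). Col1a1 was at 9.13, 9.27, 9.32, 9.32 and 9.24 in arsenic mice, against 9.42, 9.34, 9.58, 9.27 and 9.87 in controls. Its groups overlapped through control mouse 4, control mouse 5 was the highest of all, and the difference of -0.24 (SE 0.11) had a limma adjusted p of 0.328. Without control mouse 5 the difference of Col1a1 was -0.15. The second probe set of Col1a1 had a difference of -0.08.

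Col27a1, a fibrillar collagen best known from cartilage, was dim. Its values were 5.25, 4.81, 5.13, 5.36 and 5.35 in arsenic mice, against 5.37, 5.53, 5.43, 5.42 and 5.36 in controls, a difference of -0.24 (SE 0.11, limma adjusted p = 0.302) that was widest in arsenic mouse 2. Col5a1 and Col5a2 encode chains of collagen V, which starts and thins collagen I fibrils. Col5a1 had a difference of -0.03, and its second kept probe set 0.07. Col5a2 had a difference of -0.01, whereas its second probe set gave -0.48 with no overlap between the groups (SE 0.15, limma adjusted p = 0.178 over all probe sets), so the reading of Col5a2 depended on the probe set.

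**Figure D2:**
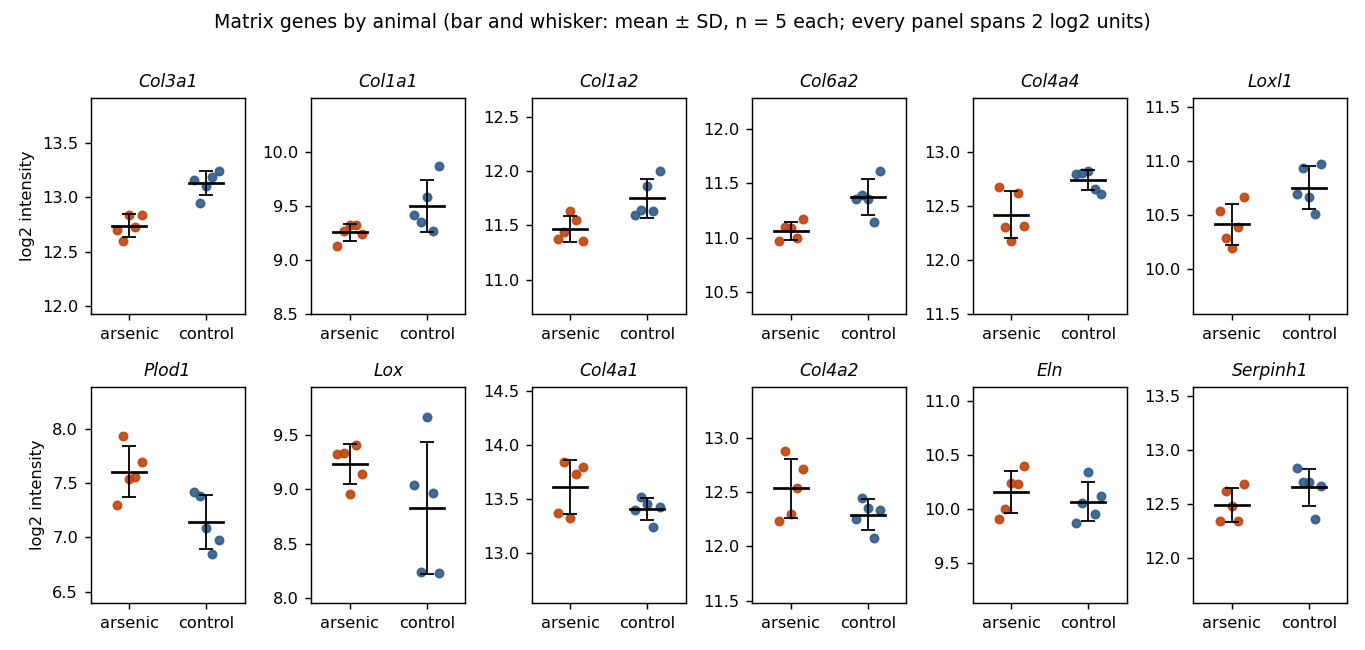
Log2 intensity of 12 matrix genes in each animal, arsenic left and control right; each point is 1 mouse, the bar and whisker are the mean ± SD (n = 5 each), and every panel spans 2 log2 units. The groups of Col3a1 are apart, those of Col1a2, Col6a2, Col4a4, Loxl1 and Plod1 touch or overlap by 1 or 2 mice, and Lox is spread widest in the controls.

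The promoters of Col3a1 and Col1a2 are shown because these fibrillar genes had the lowest p in their class, and that of Plod1 because it had the largest positive difference. The runs are the 250 bases before each start in the RefSeq table for GRCm38.p6, read 5′ to 3′ on the gene's strand, with every CCAAT and CAGAC on either strand in capitals. Col3a1 lies on the plus strand at chr1:45311288-45311537, Col1a2 on the plus strand at chr6:4505368-4505617, and Plod1 on the minus strand at chr4:147936777-147937026.
Col3a1: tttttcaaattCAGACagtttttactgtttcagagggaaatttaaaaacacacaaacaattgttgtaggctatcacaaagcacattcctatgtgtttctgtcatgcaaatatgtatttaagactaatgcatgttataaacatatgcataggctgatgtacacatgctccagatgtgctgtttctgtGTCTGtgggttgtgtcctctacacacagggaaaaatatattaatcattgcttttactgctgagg
Col1a2: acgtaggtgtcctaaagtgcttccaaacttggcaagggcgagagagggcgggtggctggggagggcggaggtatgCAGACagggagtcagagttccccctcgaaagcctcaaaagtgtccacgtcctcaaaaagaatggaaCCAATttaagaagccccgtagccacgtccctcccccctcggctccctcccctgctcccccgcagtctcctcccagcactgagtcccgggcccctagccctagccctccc
Plod1: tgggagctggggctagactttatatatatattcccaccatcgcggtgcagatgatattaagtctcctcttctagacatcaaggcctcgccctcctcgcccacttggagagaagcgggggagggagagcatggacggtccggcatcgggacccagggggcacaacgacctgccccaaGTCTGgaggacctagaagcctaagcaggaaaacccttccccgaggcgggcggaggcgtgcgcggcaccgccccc
CCAAT is the letters of the CCAAT box and CAGAC those of a Smad element, which TGF-beta signalling uses. In the Col3a1 window CAGAC begins 239 bases before the start and its reverse complement GTCTG 64 bases before it, with TATAAA at 117. The Col1a2 window holds CAGAC at 175, CCAAT at 109 and GGGCGG, the letters of the GC box, at 205 and 188. The Plod1 window holds GTCTG at 74, GGGCGG at 28, its reverse complement CCGCCC at 8 and TTTATA, that of TATAAA, at 232, and none of these matches overlaps another. Windows were found for 38 of the 53 genes and for 22 of the 33 tested. On either strand CAGAC was in 13 of the 22 (59.1%), against 42.2% of the table's 32851 windows cut to the same length, GGGCGG in 16 (72.7%, against 32.7%), CCAAT in 7 (31.8%, against 33.8%) and TATAAA in 3 (13.6%, against 12.4%). The 22 were counted by gene, with a match in any window of the gene, and the table by window, so the shares are in unlike units. Such matches describe letters only.

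All 6 collagen IV chains were tested, and the widely expressed pair Col4a1 and Col4a2 had positive differences while the other 4 chains had negative ones; with each array centred on its median Col4a3 and Col4a5, at 0.01 each, and Col4a6, at 0.02, turned positive. Col4a1 was at 13.37, 13.84, 13.33, 13.73 and 13.80 in arsenic mice, against 13.40, 13.52, 13.46, 13.24 and 13.43 in controls. Arsenic mice 2, 4 and 5 lay above every control and arsenic mice 1 and 3 within the control range, which gave a difference of 0.21 (SE 0.12, 95% interval -0.05 to 0.46, limma adjusted p = 0.405). Col4a2 was at 12.24, 12.88, 12.30, 12.54 and 12.72 in arsenic mice, against 12.26, 12.44, 12.36, 12.07 and 12.34 in controls. The same 3 arsenic mice lay above every control, and the difference was 0.24 (SE 0.13, limma adjusted p = 0.386). By its second probe set Col4a1 had 0.23.

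Col4a3 and Col4a4, with Col4a5, form the collagen IV of the mature alveolar and glomerular basement membranes. Col4a4 was at 12.68, 12.30, 12.18, 12.62 and 12.31 in arsenic mice, against 12.79, 12.80, 12.82, 12.66 and 12.61 in controls. Arsenic mice 2, 3 and 5 lay below every control, and the difference was -0.32 (SE 0.11, 95% interval -0.56 to -0.08, limma adjusted p = 0.220). Its other 2 kept probe sets gave -0.37 and -0.19, so all of them had the same sign. Its partner Col4a3 was at 9.86, 9.48, 9.51, 9.67 and 9.69 in arsenic mice, against 9.70, 9.57, 9.95, 9.83 and 9.43 in controls, where the groups overlapped throughout and the difference was -0.05 (95% interval -0.30 to 0.20). Col4a5 had a difference of -0.05 and Col4a6 of -0.04. In Col4a5 the controls lay within 11.97 to 12.04 and the arsenic mice on both sides of them, 3 below every control and 2 above every control.

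Collagen VI was read from 3 chains, all with negative differences, of which that of Col6a1 was near 0 (0.06 with each array centred on its median). Col6a2 was at 10.97, 11.09, 11.09, 10.99 and 11.17 in arsenic mice, against 11.36, 11.39, 11.35, 11.15 and 11.61 in controls. 4 of 5 arsenic mice lay below every control and the means were 11.06 ± 0.08 in arsenic mice and 11.37 ± 0.17 in controls (SD, n = 5 each), a difference of -0.31 (SE 0.09, limma adjusted p = 0.180). Another probe set for Col6a2 gave -0.27. Col6a1, which encodes a chain of the same trimer, was at 11.41, 11.66, 11.61, 11.46 and 11.61 in arsenic mice, against 11.49, 11.51, 11.62, 11.33 and 11.81 in controls. The groups overlapped throughout, with a difference of -0.0021 and a 95% interval from -0.22 to 0.21. Col6a3, the longest chain, had a difference of -0.22 (SE 0.14).

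For the remaining collagens, each read from its brightest probe set, the 95% interval of the difference included 0. The FACIT collagens, which sit on the surface of fibrils, had -0.18 for Col12a1, -0.27 for Col14a1 and 0.03 for Col16a1. Col14a1 ran from 7.88 to 9.06 in arsenic mice and from 7.84 to 9.19 in controls, a spread within each group far above the difference between them. The short-chain collagens Col8a1 and Col8a2, known from vessel walls and corneal endothelium, had -0.08 and -0.08, Col8a2 with its lowest value of 7.37 in arsenic mouse 5. Col18a1, whose product is the source of endostatin, had 0.09, and the transmembrane collagens Col13a1 and Col23a1 had -0.20 and 0.15. A further kept probe set of Col23a1 had a difference of 0.42 (SE 0.16, limma adjusted p = 0.227 over all probe sets).

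20 members stayed below the filter in that fewer than 5 arrays exceeded 4.20, and no test was made of them. They were Col2a1, Col5a3, Col11a1, Col11a2, Col24a1, Col10a1, Col6a4, Col6a5, Col9a1, Col9a2, Col9a3, Col19a1, Col20a1, Col22a1, Col15a1, Col17a1, Col25a1, Col7a1, Col26a1 and Loxl4, among them the main collagens of cartilage and the anchoring fibril collagen Col7a1. Their highest value on any array was 4.25, of Col20a1, and their differences of means ran from -0.21 for Col9a3 to 0.17 for Loxl4. The cartilage markers Acan, Matn1, Matn3, Comp, Hapln1, Cnmd and Sox9 were below the filter too, while Chad was at 10.71 ± 0.96 in arsenic mice and 10.74 ± 0.68 in controls (SD, n = 5 each).

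The 3 lysyl oxidases tested differed in direction. Loxl1, the family member tied to elastin deposition, was at 10.54, 10.29, 10.20, 10.39 and 10.67 in arsenic mice, against 10.70, 10.94, 10.67, 10.51 and 10.97 in controls. Arsenic mice 2, 3 and 4 lay below every control, and the difference was -0.34 (SE 0.12, limma adjusted p = 0.235). Its second kept probe set was dim and gave 0.08 (SE 0.23), so the sign rested on the brighter one. Lox, which crosslinks both collagen and elastin, was at 9.33, 9.34, 8.96, 9.41 and 9.15 in arsenic mice, against 9.04, 8.24, 9.67, 8.97 and 8.23 in controls. The control values ran from the lowest to the highest of all 10, with control mice 2 and 5 low and control mouse 3 high, so that the difference of 0.41 had a 95% interval from -0.15 to 0.96 (SE 0.25, limma adjusted p = 0.438). The SD of Lox was 0.18 in arsenic mice and 0.61 in controls, and a second probe set gave 0.32. In Loxl3, 4 of 5 arsenic mice lay above every control and the difference was 0.19 (SE 0.09, limma adjusted p = 0.367).

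Among the elastic fibre genes and fibronectin, the 95% interval of the difference included 0 for each of the 4 genes when read from its brightest probe set. Eln, which encodes tropoelastin, was at 9.91, 10.01, 10.24, 10.24 and 10.40 in arsenic mice, against 9.87, 10.06, 10.35, 9.96 and 10.12 in controls. The groups overlapped, and the difference was 0.09 with a 95% interval from -0.17 to 0.34; a second probe set gave 0.25 (SE 0.16). Fbln5, which organises elastin on microfibrils, had a difference of -0.04. Fbln1 had -0.29 (SE 0.24), with arsenic mouse 3 at 8.97 above every control and the other 4 arsenic mice below every control. By its second kept probe set the difference of Fbln1 was -0.07 (SE 0.20). There only arsenic mice 1 and 2 lay below every control. Fn1, which encodes fibronectin, the glycoprotein on which collagen fibrils assemble, was at 11.74, 12.01, 12.34, 11.89 and 11.85 in arsenic mice, against 11.81, 11.86, 12.04, 11.65 and 12.01 in controls. Its difference was 0.09 (SE 0.12), but its second kept probe set gave -0.59 (SE 0.23, limma adjusted p = 0.241 over all probe sets), and the transcript forms each one reads were not analysed here.

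Of the genes that prepare collagen inside the cell, Plod1 had the largest positive difference of all 33. It encodes a lysyl hydroxylase that modifies lysines of the collagen helix. It was at 7.30, 7.94, 7.54, 7.56 and 7.70 in arsenic mice, against 7.42, 7.38, 7.09, 6.85 and 6.97 in controls. 4 of 5 arsenic mice lay above every control, the means were 7.61 ± 0.23 in arsenic mice and 7.14 ± 0.25 in controls (SD, n = 5 each), and the difference was 0.47 (SE 0.14, 95% interval 0.15 to 0.78, limma adjusted p = 0.198). Plod2, which hydroxylates the telopeptide lysines, was at 9.84, 9.49, 9.20, 10.17 and 9.79 in arsenic mice, against 9.91, 9.82, 9.96, 9.97 and 9.68 in controls. Arsenic mice 2 and 3 were the lowest and arsenic mouse 4 the highest of all, and the difference was -0.17 (SE 0.16). Serpinh1 was at 12.34, 12.62, 12.49, 12.35 and 12.69 in arsenic mice, against 12.83, 12.71, 12.71, 12.37 and 12.67 in controls. The groups overlapped, with a difference of -0.16 (SE 0.11) and of -0.27 by its second probe set (SE 0.13).

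In all, the 53 genes had 105 probe sets, of which 58 passed the filter. 23 genes had more than 1 kept probe set, and in 18 of them all kept probe sets had the same sign, the exceptions being Col4a6, Col5a1, Col8a1, Fn1 and Loxl1. When each probe set was tested on its own, 0 of the 58 passed the limma adjusted threshold of 0.05, against 99 of all 22552 kept (0.439%). The share of all kept probe sets whose groups did not overlap was not taken. The further probe sets of Col3a1, Col1a2 and Col5a2 without overlap thus have no such share beside them.

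Seen by animal, the 6 fibrillar genes had mean values, each gene taken relative to its own mean over the 10 animals, of -0.20, -0.17, -0.09, -0.05 and 0.02 in arsenic mice 1 to 5, against 0.08, -0.01, 0.14, 0.04 and 0.26 in control mice 1 to 5. Arsenic mouse 5 lay above control mouse 2, so the groups overlapped by this pair. The 3 collagen VI genes averaged -0.17, -0.03, -0.19, -0.08 and 0.02 in arsenic mice, against -0.02, 0.06, 0.19, -0.12 and 0.34 in controls. Control mouse 5 was the highest in both classes, and control mouse 4 was below 3 of the 5 arsenic mice in collagen VI. The 6 collagen IV genes, which include chains of both signs, averaged -0.05, 0.11, -0.10, -0.03 and 0.06 in arsenic mice, against -0.03, 0.03, 0.06, -0.07 and 0.01 in controls. The groups overlapped throughout there.

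**Figure D3:**
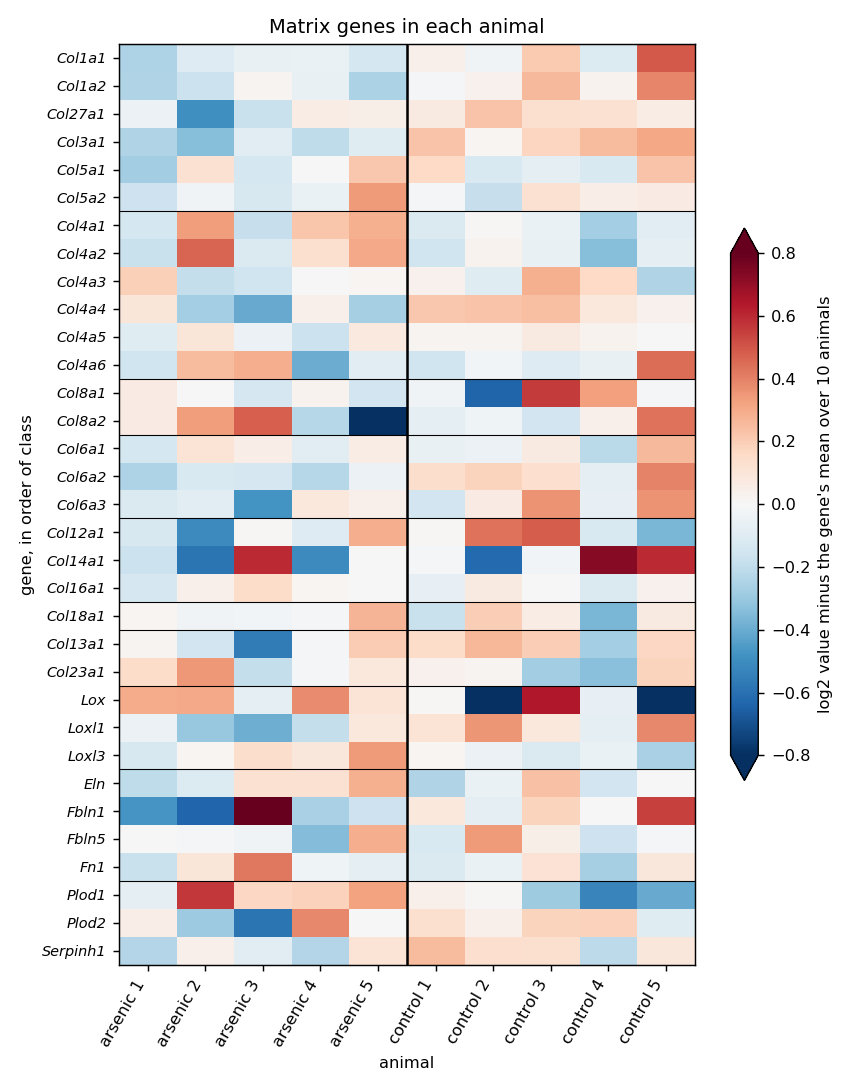
Log2 value of each of the 33 genes (rows, by class) in each animal (columns, arsenic left and control right of the black line), minus the gene's mean over the 10 animals; the colour scale ends at ± 0.8 log2. Col3a1 is blue in all 5 arsenic mice and Plod1 in 1 of them, and the strongest colours belong to single animals, such as Fbln1 in arsenic mouse 3, Col14a1 in control mouse 4 and Lox in control mice 2 and 5.

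Chains of 1 trimer and partners of 1 fibre were compared across animals after the group means were taken out, in 9 pairs. Each point is 1 lung, both values come from the same array, and the deviations sum to 0 in each group, which makes the p-values somewhat too small. Col4a1 and Col4a2 went together most closely, with a Pearson r of 0.951 (permutation p = 6e-05, adjusted 0.00054), a Spearman rho of 0.915 (permutation p = 0.00052, adjusted 0.00468) and an r of 0.932 without the 2 mice farthest out. Their genes lie head to head on chromosome 8, with annotated starts 21 bases apart and the annotated 5′ ends overlapping. Col6a1 and Col6a2 had an r of 0.916 (permutation p = 0.00031, adjusted 0.00105) and a rho of 0.855 (permutation p = 0.00292, adjusted 0.0131), with an r of 0.730 without the 2 mice farthest out, control mice 4 and 5. Col1a1 and Col1a2 had an r of 0.877 (permutation p = 0.00035, adjusted 0.00105) and a rho of 0.782 (permutation p = 0.0107, adjusted 0.0321), with an r of 0.841 without the 2 farthest, again control mice 4 and 5. These 3 pairs were the ones that passed, 1 each from collagens IV, VI and I.

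The other 6 pairs did not pass an adjusted p of 0.05. Col5a1 and Col5a2 had an r of 0.628 (permutation p = 0.0432, adjusted 0.0972), a rho of 0.624 (permutation p = 0.0589, adjusted 0.106) and an r of 0.365 without the 2 farthest. Col4a3 and Col4a4 had an r of 0.586 (permutation p = 0.0759, adjusted 0.137), a rho of 0.709 (permutation p = 0.0268, adjusted 0.0602) and an r of 0.555 without the 2 farthest. For these 2 pairs the choice of probe set mattered: with the most variable kept probe set of each gene r was -0.118 for collagen V and 0.854 for Col4a3 and Col4a4. Col1a1 and Col3a1, whose products meet in mixed fibrils, had an r of 0.391 (permutation p = 0.265, adjusted 0.304), a rho of 0.370 (permutation p = 0.295, adjusted 0.379) and an r of 0.416 without the 2 farthest; r was -0.081 with the mean of the kept probe sets. Col6a1 and Col6a3 had an r of 0.423 (permutation p = 0.224, adjusted 0.304), a rho of 0.527 (permutation p = 0.124, adjusted 0.186) and an r of 0.0775 without the 2 farthest. The remaining pairs were Col4a5 with Col4a6, also neighbours, on chromosome X with starts 1343 bases apart, and elastin with its crosslinker Loxl1. The first had an r of 0.384 (permutation p = 0.270, adjusted 0.304), a rho of 0.285 (permutation p = 0.425, adjusted 0.478) and an r of -0.231 without the 2 farthest. Eln and Loxl1 had an r of 0.187 (permutation p = 0.595, adjusted 0.595), a rho of 0.115 (permutation p = 0.757, adjusted 0.757) and an r of 0.539 without the 2 farthest.

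**Figure D4:**
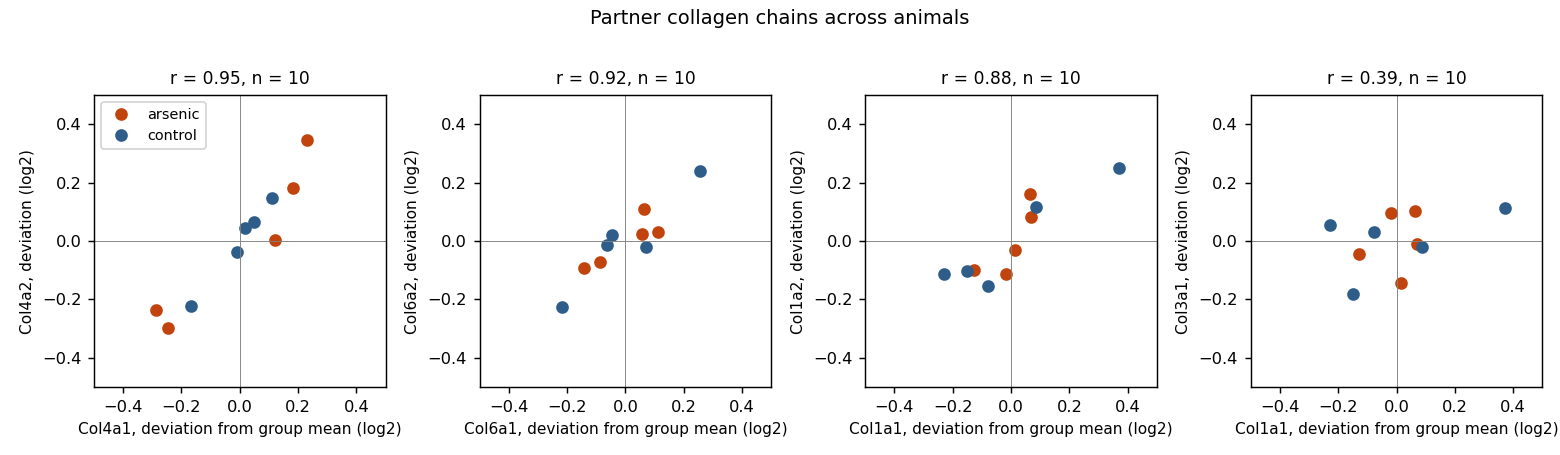
Deviation of each animal from its group's mean (log2) for 4 pairs of chains, with Pearson's r over 10 animals above each panel; orange points are arsenic mice and blue points controls. The points of Col4a1 and Col4a2 (r = 0.951), Col6a1 and Col6a2 (r = 0.916) and Col1a1 and Col1a2 (r = 0.877) run along the diagonal in both groups, and those of Col1a1 and Col3a1 (r = 0.391) scatter.

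Related genes outside the 53 were read from 6 lists, in which 68 genes were tested and 0 passed the limma adjusted threshold of 0.05, against 0.476% of all genes; 8 of them (11.8%, against 15.7%) had an unadjusted p under 0.05, 5 with higher and 3 with lower means in arsenic mice. Among all genes 10.6% had such a p with a higher and 5.13% with a lower mean. The median difference of the 68 genes was 0.0085, and 33 of 68 were negative, against 36.8% of all genes. The counts of negative differences in each list are to be read beside that share. The list of collagen synthesis and processing had 17 genes tested, a median of 0.02 and 8 negative differences. It held P4ha2, a catalytic subunit of collagen prolyl 4-hydroxylase, which was at 10.34, 10.66, 10.39, 10.27 and 10.41 in arsenic mice, against 10.15, 9.99, 9.98, 9.92 and 9.83 in controls. Every arsenic mouse lay above every control, as 2.82% of all genes did, and the difference was 0.44 (SE 0.09, limma adjusted p = 0.0855). Fkbp14, a prolyl isomerase of the endoplasmic reticulum that acts on collagens, was at 9.34, 9.69, 9.42, 9.71 and 9.89 in arsenic mice, against 9.06, 8.72, 9.02, 9.19 and 9.14 in controls. These groups did not overlap either, with a difference of 0.59 (SE 0.12, limma adjusted p = 0.0855).

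The elastic fibre assembly list had 11 genes tested and a median of 0.00066, with 5 negative differences. Its lowest p belonged to Mfap2, a microfibril protein, with a difference of 0.41 (limma adjusted p = 0.205), and to Ltbp2, a latent TGF-beta binding protein of microfibrils, with 0.34. Of 8 small leucine-rich proteoglycans, which coat collagen fibrils, 4 were negative and the median was -0.12, with -0.56 for Aspn (limma adjusted p = 0.167) and -0.46 for Ogn. Of 12 laminin and basement membrane genes 3 were negative and the median was 0.05, with 0.35 for Nid2 and 0.15 for Lamc1. Of 6 collagen receptors 5 were negative and the median was -0.20, with -0.29 for Mrc2, an endocytic collagen receptor, and 0.23 for Lair1. Of 14 TGF-beta and profibrotic genes 8 were negative and the median was -0.03, with -0.44 for the ligand Tgfb2 (limma adjusted p = 0.255) and 0.20 for the signal transducer Smad3 (limma adjusted p = 0.310).

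**Figure D5:**
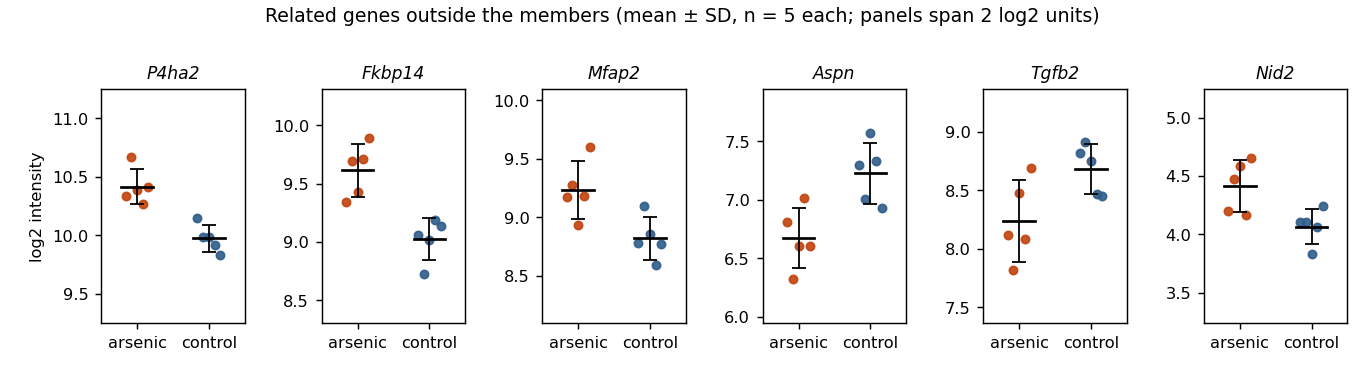
Log2 intensity of 6 related genes in each animal, arsenic left and control right; each point is 1 mouse, the bar and whisker are the mean ± SD (n = 5 each), and every panel spans 2 log2 units. P4ha2 and Fkbp14 are apart, with every arsenic mouse above every control, and Mfap2, Aspn, Tgfb2 and Nid2 overlap.

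Markers of cells and tissues a lung sample can hold were read beside these genes. The mean of 11 fibroblast markers other than collagens was 11.23 ± 0.16 in arsenic mice and 11.28 ± 0.14 in controls (exact permutation p = 0.635, two-sided, n = 5 each), with Fap below the filter. The mean of 6 smooth muscle markers was 9.60 ± 0.41 in arsenic mice and 9.59 ± 0.25 in controls (exact permutation p = 0.984). Neither differed beyond the spread between animals. Kidney markers had the widest gap: the mean of the 6 of 11 that passed the filter ran from 7.04 to 8.97 in arsenic mice and from 4.96 to 8.07 in controls (exact permutation p = 0.0794), highest in arsenic mouse 4 and lowest in control mouse 1, while Slc12a1, Slc12a3, Aqp2, Nphs1 and Slc22a6 did not pass it. Of these 5, Slc12a1 reached 5.46 in arsenic mouse 4, and the others stayed below 4.20 on all arrays. Umod and Cdh16 had an unadjusted p under 0.05, with differences of 2.26 (SE 0.91, limma adjusted p = 0.280) and 0.59 (SE 0.21, limma adjusted p = 0.246). Kap, Miox and Slc34a1 had positive differences too, and Aqp3 a negative one of -0.14. Cdh16 was highest in arsenic mouse 5, at 8.75, although that mouse had the lowest kidney mean of the arsenic mice. The kidney markers thus did not all move together. With the kidney mean as a covariate 4 of the 33 matrix genes had an unadjusted p under 0.05, against 7 without it. Over all genes 6 passed the limma adjusted threshold with that covariate, against 54 without it, and 0 matrix genes passed it in either fit. These counts are at another threshold than the 4 and 7, so the losses cannot be set side by side. The share of all genes with an unadjusted p under 0.05 was not taken from that fit. The difference of Col3a1 was -0.38 with that covariate (limma adjusted p = 0.127) and -0.38 without arsenic mouse 4 and control mouse 1 (limma adjusted p = 0.259). Adipocyte markers ran from 4.46 to 11.19 in arsenic mice and from 4.34 to 10.19 in controls (exact permutation p = 0.968), and heart markers from 7.64 to 11.10 in arsenic mice and from 7.99 to 10.94 in controls (exact permutation p = 0.651). Arsenic mouse 3, which had the highest Fbln1 and Fn1, was also the highest in both of these. The same mouse was the highest of all in the fibroblast, smooth muscle and mesothelial means and in Chad. Chad was the only 1 of 8 cartilage markers past the filter, and the others stayed below 4.20 on all arrays. The part of any of these tissues in the Fbln1 and Fn1 values was not tested. The mean of 4 mesothelial markers was 8.05 ± 1.41 in arsenic mice and 8.55 ± 0.71 in controls (exact permutation p = 0.524). The Actb log2 ratio of 3' to 5' control probe sets, a measure of RNA integrity, was 0.634 ± 0.082 in arsenic mice and 0.620 ± 0.035 in controls (exact permutation p = 0.754), and the smallest p this design allows is 0.00794.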

How the data were processed

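RNA of 10 mouse lungs was hybridised to Affymetrix Mouse430_2 arrays, per the labels. The deposited table holds log2 values that the authors made with GCRMA, per the submitters' processing notes; its version is not given in the sources used here. GCRMA pulls dim probe sets towards a floor, which shrinks their differences. Scanner files, and the detection calls and scan times they may hold, were not used here.

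Of 45101 probe sets, 34958 had 1 symbol in the platform annotation, 932 had several and 9211 were not listed. Those above the table's median, 4.20, on at least 5 arrays were kept (22552), and a gene was read from the kept probe set of highest mean. Groups followed the titles. The arsenic and control arrays were fitted in limma 3.58.1 (lmFit, eBayes; R 4.3.3) over all 11333 genes, with Benjamini-Hochberg adjustment and a threshold of 0.05; the prior had 2.82 degrees of freedom. Array-level marker means were compared by exact permutation over 252 splits, and pairs of genes by 100000 permutations. The fit was tested on simulated data. Figures used matplotlib 3.10.9 under Python 3.11.15. All 53 symbols matched RefSeq.

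The genes and lists were chosen with earlier results of these data known. Values per animal were given for members whose groups did not overlap, the 8 with the smallest p, the 3 largest differences each way and a set of main matrix genes; from each related list the 2 genes with the smallest p were named. Alternatives were other filters, probe set rules, normalizations, eBayes settings, array weights, a replicate block, covariates for the kidney level and the Actb 3' to 5' ratio, another threshold and leaving animals out. Same-numbered animals correlated between -0.332 and 0.253 after group means were removed, and 0 of 5 correlated best with its own number, so the numbers were not taken as pairs.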

Additional observations from a re-analysis of the deposited data

Results flagged for a closer look

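In 4 of the 66 groups of 5 animals (33 genes in 2 groups), 1 animal stood apart from the others of its group by Dixon's test at its 95% critical value, 0.71; chance alone does so in about 1 in 20 groups. Col5a2, a collagen V chain, was at 10.90 in arsenic mouse 5, against 10.39 to 10.54 in the other arsenic mice. Col18a1, a basement membrane collagen, was at 7.74 in the same mouse, against 7.45 to 7.49 in the other arsenic mice. Col4a6, a collagen IV chain, was at 8.06 in control mouse 5, against 7.46 to 7.60 in the other controls. Col13a1, a transmembrane collagen, was at 9.33 in control mouse 4, against 9.75 to 9.87 in the other controls.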

How the results depend on the processing

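The count of matrix genes past the adjusted threshold, 0, was 1 with a trended and robust prior, 1 with array weights and 1 at an adjusted p of 0.1, in each case Col3a1, and 0 without any single animal. The count with an unadjusted p under 0.05, 7, was 4 with the kidney covariate and 5 with median centring. It was 9 with array weights, with the Actb ratio and with no filter (there of 53 genes), and 6 to 9 without single animals. The share of all genes under that p was not taken in these fits. The median difference ran from -0.12 to 0.0089 over the alternatives, positive with median centring, and from -0.105 to -0.0378 without single animals. The pairs that passed stayed at 3 or 4 in number. Over all genes 54 passed, but 19 with no filter (16 higher, 3 lower), 6 with the kidney covariate (4 higher, 2 lower), 140 with the Actb ratio (104 higher, 36 lower), 11 without arsenic mouse 4 and control mouse 2, 4 without arsenic mouse 4 and control mouse 1, and 9 to 41 without single animals; leaving out any mouse but arsenic mouse 1 gave 31 or fewer. With the replicate block 5 genes passed (2 higher, 3 lower), none of them a matrix gene. Replicate numbers did not pair the animals, and with the block 6 matrix genes had an unadjusted p under 0.05. The causes were not tested.

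20 of the 33 genes kept their sign without each single animal and in each alternative that tested them, which was all 13 for 16 of them and 12 for Col18a1, Col27a1, Loxl3 and Plod1. With median centring the sign turned in Col4a3 (0.0089), Col4a5 (0.0090), Col4a6 (0.023), Col5a1 (0.033), Col5a2 (0.049), Col6a1 (0.061) and Fbln5 (0.026). With the kidney covariate it turned in Col4a6 (0.027), Col5a1 (0.083), Col5a2 (0.0093), Col6a1 (0.063), Fbln5 (0.067) and Serpinh1 (0.0079), and with the Actb ratio in Col5a2 (0.0066) and Col6a1 (0.0043). With the mean of kept probe sets it turned in Col4a6 (0.017), Col5a1 (0.020), Col8a1 (0.0089) and Fn1 (-0.25), and with the most variable one in Col4a6 (0.074), Fn1 (-0.59) and Loxl1 (0.083). Single further probe sets turned it in Col5a1 (0.071) and Col8a1 (0.097). Without arsenic mouse 4 and control mouse 2 it turned in Col4a6 (0.043), Col6a1 (0.0088) and Fbln5 (0.125), and without arsenic mouse 4 and control mouse 1, an alternative chosen after seeing the data, as were the single probe sets, in Col4a6 (0.0081), Col5a1 (0.0022), Col6a1 (0.0043) and Fbln5 (0.0100). Without single animals the sign turned in Col16a1 (-0.0082 to 0.063), Col4a3 (-0.12 to 0.010), Col4a6 (-0.12 to 0.065), Col5a1 (-0.088 to 0.035), Col5a2 (-0.10 to 0.026), Col6a1 (-0.057 to 0.062), Col8a1 (-0.25 to 0.050), Col8a2 (-0.21 to 0.12), Fbln5 (-0.11 to 0.045) and Fn1 (-0.0028 to 0.15). The r of Col1a1-Col3a1 was -0.0812 with the mean of kept probe sets and -0.137 with the most variable, and the r of Col5a1-Col5a2 was -0.118 with the most variable. The r of Col4a5-Col4a6 was -0.00299 without arsenic mouse 4 and control mouse 1, and the r of Eln-Loxl1 ran from -0.0965, without arsenic mouse 5, to 0.383 without arsenic mouse 1.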
